A study of Cavia porcellus with 12 samples.

Results

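The genes described here carry bile acids into and out of hepatocytes or sense them. Of the 10 genes listed for this purpose by human symbol, 9 were rows of the deposited table of log2 expression values, which holds 11896 symbols in all, and the remaining member, *ABCB4* (the canalicular phosphatidylcholine floppase), has no row under that symbol there and was not analysed here. The members were picked by name and function, with earlier results of these data known. The livers came from female Dunkin Hartley guinea pigs, all of the same age at the start, which received for 25 weeks either chow (6 controls, labelled healthy) or a high-fat diet with added sucrose and cholesterol (6 animals with NASH, nonalcoholic steatohepatitis). The animals with NASH had been selected for bridging fibrosis and the controls drawn at random from animals without NASH or fibrosis, so diet and disease cannot be told apart here. Poly(A)-enriched RNA from the left lateral lobe of unperfused liver was sequenced as 1 library per animal. Each animal is a separate sample and is named by its number, 5, 10, 31, 32, 45 and 56 in controls and 2, 9, 11, 20, 41 and 65 in NASH.

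Bile acids circulate between liver and intestine. Hepatocytes take them from portal blood across the basolateral (sinusoidal) membrane, mainly through the sodium-dependent carrier SLC10A1 (NTCP) and the organic anion carriers of the SLCO1B group, and secrete them across the canalicular membrane through ABCB11 (BSEP) and, for bilirubin glucuronides and divalent conjugates, ABCC2 (MRP2). ABCC3 (MRP3) and ABCC4 (MRP4) export organic anions and bile acids back across the basolateral membrane and are low in the healthy liver. NR1H4 (FXR) is the nuclear receptor for bile acids, NR0B2 (SHP) is a corepressor that it induces, and GPBAR1 (TGR5) is a bile acid receptor of the plasma membrane.

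Total counts per library ranged from 16980274 to 28636467 in controls and from 23704607 to 33091460 in NASH. Values are CPM, counts per 1000000 of the library total after TMM scaling, a correction for library composition. CPM is not divided by transcript length, so levels are compared between animals and not between genes. Hepatocyte markers were present in every library, with a summed level of 124330 to 148386 CPM in controls and 55319 to 82901 CPM in NASH, none of the 13 measured markers was at 0 in a group, and 12 of the 13 fell (6 fell and 1 rose by library size alone), from *TTR* with a log2 fold change of −2.20 to *ASGR1* with −0.18. In bulk tissue, fewer hepatocytes and less RNA per hepatocyte cannot be told apart.

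Of the 9 members measured, 5 were lower and 4 higher in NASH by edgeR's quasi-likelihood test with Benjamini-Hochberg adjustment over all symbols (threshold 0.05). Over all symbols, 53.9% passed the same threshold, 27.9% as higher and 26% as lower. Both uptake carriers and both canalicular pumps were lower, both basolateral exporters were higher, and the receptors moved in both directions, with *NR1H4* and *GPBAR1* higher and *NR0B2* lower; the calls of *ABCB11*, *ABCC2* and *NR0B2* as lower depended on the scaling, as given with their values. The 9 members had a median log2 fold change of −0.29, and all symbols 0.0018. In 6 members, 3 higher and 3 lower, the CPM of the groups did not overlap, which was the case for 33.7% of all symbols (18.4% as higher and 15.3% as lower). The counts of higher members include *GPBAR1*, which reached the table's minimum of 200 counts only through its counts in NASH. At a threshold of 0.01, 3 members were higher and 3 lower, where 21.5% of all symbols were higher and 19.1% lower.

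**Figure D1:**
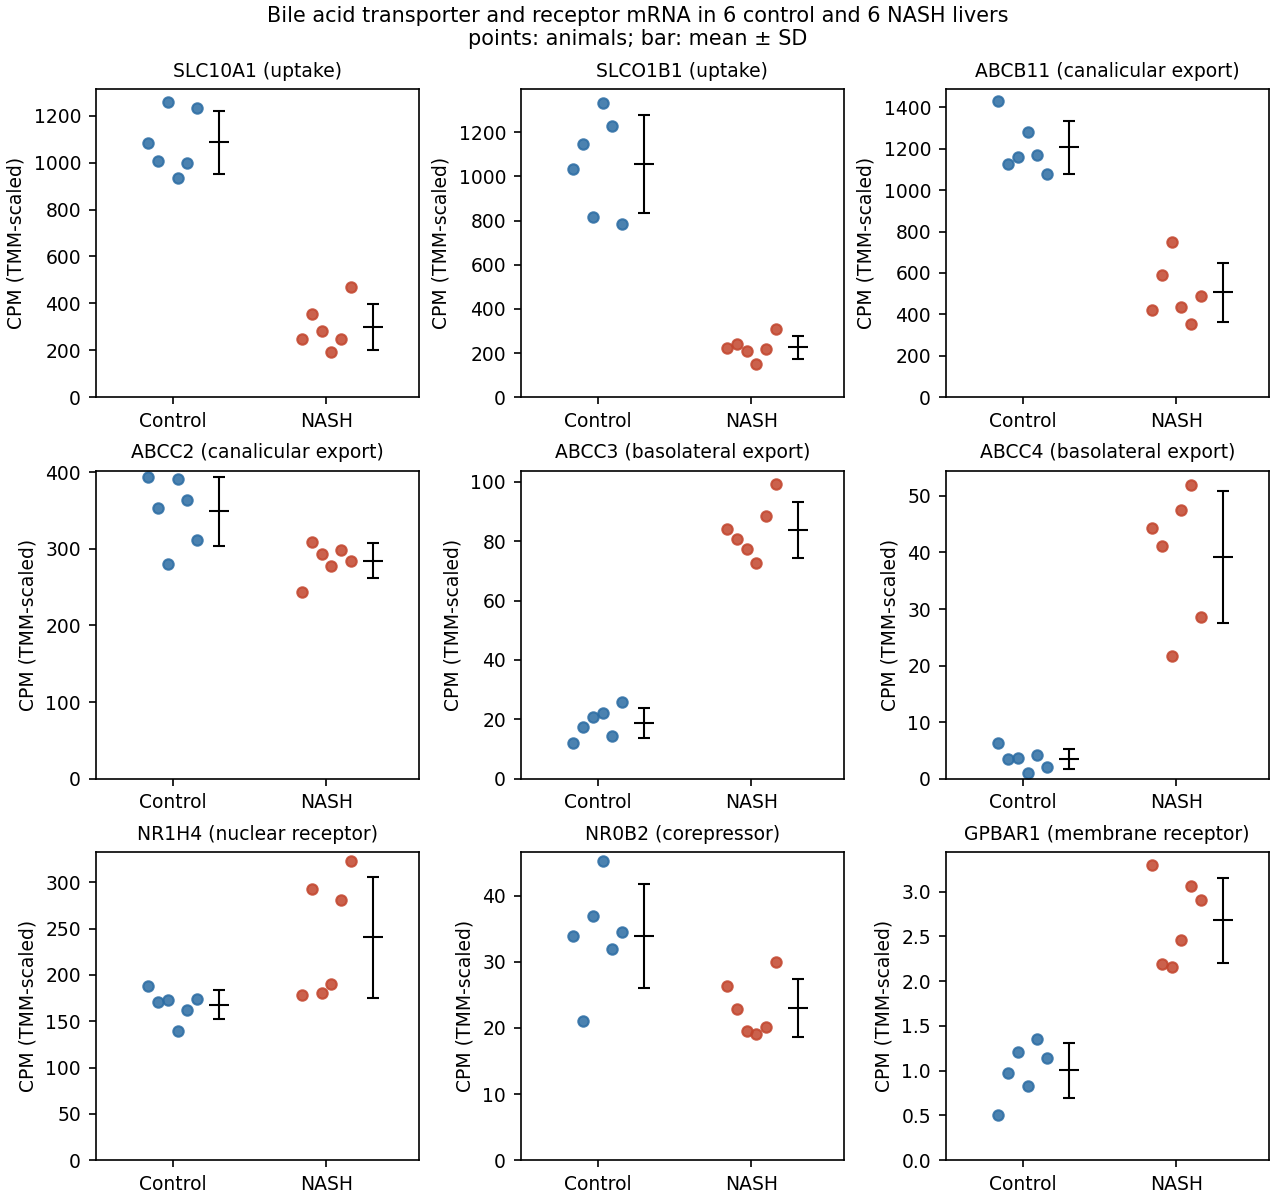
Level of each of the 9 members in CPM (vertical axis, TMM-scaled, starting at 0) in 6 control and 6 NASH livers. Points are animals and the bar is mean ± SD. *SLC10A1*, *SLCO1B1* and *ABCB11* lie lower without overlap, *ABCC3*, *ABCC4* and *GPBAR1* higher without overlap, and the groups of *ABCC2*, *NR1H4* and *NR0B2* overlap.

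Of the uptake carriers, *SLC10A1*, which brings in conjugated bile salts together with sodium, was 933.7 to 1258 CPM in controls (median 1045) against 193.7 to 468.1 CPM in NASH (median 266). Every animal with NASH lay below every control, with animal 65 the highest of them and animal 20 the lowest. From means of 1086 ± 133 and 299 ± 98.03 CPM (SD, n = 6 each), the level fell 3.63-fold, or −1.86 on the log2 scale (SE 0.19, edgeR adjusted p = 4.94e-06). Relative to hepatocyte markers the log2 value was −0.95 (edgeR adjusted p = 2.5e-05). Under that scaling the median of all symbols was 0.96.

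*SLCO1B1*, a sodium-independent carrier of organic anions such as bilirubin and unconjugated bile acids, ranged from 782.8 to 1335 CPM in controls (median 1091) and from 152.8 to 308.3 CPM in NASH (median 221). The groups did not overlap, and the lowest and the highest of the animals with NASH were the same as for *SLC10A1*, animals 20 and 65. The log2 fold change was −2.23 (SE 0.18, edgeR adjusted p = 7.35e-07) and the level 4.68-fold lower, the largest fall among the 9 members. Relative to hepatocyte markers the log2 value was −1.30 (edgeR adjusted p = 1.28e-06). The count row behind *SLCO1B1* carries 5 human symbols, *SLCO1B3* and *SLCO1B7* among them, so the guinea pig locus is not specific to a single human carrier. A numbered copy, *SLCO1B1.1*, stands on a locus of its own, which again carries 5 symbols. It fell from 975 ± 155 to 389 ± 35.5 CPM (SD, n = 6 each), or −1.33 on the log2 scale (SE 0.11, edgeR adjusted p = 7.78e-07), without overlap between the groups, and its log2 value relative to hepatocyte markers was −0.37 (edgeR adjusted p = 0.00461). With the counts of both loci added up, an alternative chosen after the data were seen, the log2 fold change was −1.73 (edgeR adjusted p = 1.48e-07). How near the loci are in sequence, and so how unique reads were divided between them, was not tested.

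Of the canalicular pumps, *ABCB11*, the bile salt export pump, was 1078 to 1432 CPM in controls (median 1164) against 354.8 to 749.5 CPM in NASH (median 461). Animal 11 was the highest of the animals with NASH and still lay below every control. Means of 1207 ± 129 and 506 ± 142 CPM (SD, n = 6 each) gave a 2.38-fold lower level, or −1.25 on the log2 scale (SE 0.16, edgeR adjusted p = 3.45e-05). Relative to hepatocyte markers the fall was −0.29, with a 95% interval from −0.67 to 0.10 (edgeR adjusted p = 0.149), so it did not pass the threshold under that scaling.

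*ABCC2*, the pump for bilirubin glucuronides and other divalent conjugates, was 280.6 to 394.2 CPM in controls (median 358) against 243.2 to 309.1 CPM in NASH (median 289). The groups overlapped, and 2 of the 6 animals with NASH lay below the lowest control. The log2 fold change was −0.29 (SE 0.09, edgeR adjusted p = 0.0178), a 1.23-fold lower level. Its sign depended on the scaling, with 0.18 (edgeR adjusted p = 0.0594) by library size alone and 0.66 (edgeR adjusted p = 6.4e-05) relative to hepatocyte markers. The median of all symbols was 0.48 and 0.96 under these scalings, and *ABCC2* lay 0.29 and 0.30 below it. With every count row of at least 1 count in the fit, the fall of *ABCC2* did not pass the threshold (edgeR adjusted p = 0.108).

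The basolateral exporters went the other way. *ABCC3*, which exports glucuronides and bile acids to the blood, was 12.1 to 25.9 CPM in controls (median 19.0) against 72.7 to 99.3 CPM in NASH (median 82.4). The lowest animal with NASH was well above the highest control, and the spread within NASH was small for this gene, with a coefficient of variation of 11.2% against 27.2% in controls. The level rose 4.45-fold, from 18.8 ± 5.12 to 83.8 ± 9.38 CPM (SD, n = 6 each), or 2.15 on the log2 scale (SE 0.17, edgeR adjusted p = 5.77e-07).

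*ABCC4*, an exporter that moves bile acids together with glutathione, had the largest change of the 9 members in either direction. It was 1.06 to 6.29 CPM in controls (median 3.61) against 21.7 to 51.9 CPM in NASH (median 42.8). The counts behind these values were 23 to 100 per control and 663 to 2034 per animal with NASH. No control came near the lowest animal with NASH, animal 11, which had the highest *ABCB11* level of its group. The 11.4-fold higher level corresponded to 3.51 on the log2 scale (SE 0.36, edgeR adjusted p = 5.2e-06). When the hypothesis tested was a change of more than 1 on the log2 scale, *ABCC3*, *ABCC4*, *SLC10A1* and *SLCO1B1* passed the threshold, and *ABCB11* did not (edgeR adjusted p = 0.174). Of all symbols, 7.17% passed this test as higher and 2.08% as lower.

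Markers of bile duct cells, which also express *ABCC3*, moved with this rise. Of the 8 cholangiocyte markers measured, 7 were higher and none lower in NASH, the highest being *CLDN4* with a log2 fold change of 4.33, whose 145 counts over the 6 controls are under the minimum of 200, so that it was in the table only through NASH. Their summed level was 98.9 to 211.4 CPM in controls and 438.4 to 684.1 CPM in NASH, without overlap, and none of the 8 was at 0 in either group. Their part in the level of *ABCC3*, *ABCC4* or *GPBAR1* was not tested.

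Of the sensors, *NR1H4*, the bile acid receptor FXR, was 140.0 to 187.8 CPM in controls (median 172) against 178.0 to 323.3 CPM in NASH (median 235). Animals 9, 41 and 65 were at 293, 280 and 323 CPM, whereas animals 2, 11 and 20 lay within or just above the range of the controls. In all, 4 of the 6 animals with NASH exceeded the highest control. The spread was wider in NASH, with a coefficient of variation of 27.1% against 9.51% in controls. The log2 fold change was 0.52 (SE 0.16, 95% interval 0.18 to 0.86, edgeR adjusted p = 0.014), a 1.43-fold higher level. It stayed positive under each scaling, and relative to hepatocyte markers it was 1.44 (edgeR adjusted p = 6.95e-08), where the median of all symbols was 0.96. *NR1H4* lay 0.52 above the median of all symbols with TMM, 0.51 by library size alone and 0.48 relative to hepatocyte markers.

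*NR0B2*, the corepressor SHP, was 21.03 to 45.3 CPM in controls (median 34.2) against 19.1 to 30.0 CPM in NASH (median 21.5). The groups overlapped because animal 10 had the lowest level among controls, and 3 of the 6 animals with NASH lay below it. The log2 fold change was −0.56 (SE 0.17, 95% interval −0.92 to −0.20, edgeR adjusted p = 0.0124), a 1.48-fold lower level. By library size alone it was −0.09 (edgeR adjusted p = 0.639) and relative to hepatocyte markers 0.37 (edgeR adjusted p = 0.0593), so its direction flipped under the latter. Set against the median of all symbols, *NR0B2* lay 0.56 below it with TMM, 0.57 by library size alone and 0.59 relative to hepatocyte markers.

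*GPBAR1*, the membrane receptor TGR5, which in liver is known from macrophages, endothelium and bile ducts rather than from hepatocytes, was the least abundant member in counts, with 7 to 33 per control and 66 to 120 per animal with NASH. It was 0.5002 to 1.36 CPM in controls (median 1.06) against 2.16 to 3.30 CPM in NASH (median 2.68), without overlap. The 2.64-fold higher level corresponded to 1.40 on the log2 scale (SE 0.22, edgeR adjusted p = 0.000163). The 6 controls had 120 counts in all, under the authors' minimum of 200 per gene, so this gene was in the table only because of its counts in NASH. Of the 8 macrophage markers measured, 1 was higher and 2 were lower in NASH (5 and 1 by library size alone, 6 and 0 relative to hepatocyte markers), from *CD68* with a log2 fold change of 0.69 to *MARCO* with −1.27, and their summed level overlapped, at 451 to 755 CPM in controls and 649 to 843 CPM in NASH. Of the 8 endothelial markers, 3 were higher and 2 lower (4 and 1 by library size alone, 7 and 0 relative to hepatocyte markers), from *VWF* with 1.46 to *LYVE1* with −0.81, with summed levels of 558 to 757 CPM in controls and 614 to 885 CPM in NASH. Of all 11896 symbols, 7603 were higher and 911 lower by library size alone, and 10182 and 296 relative to hepatocyte markers. No marker of these lists was at 0 in either group, and their part in the *GPBAR1* level was not tested.

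**Figure D2:**
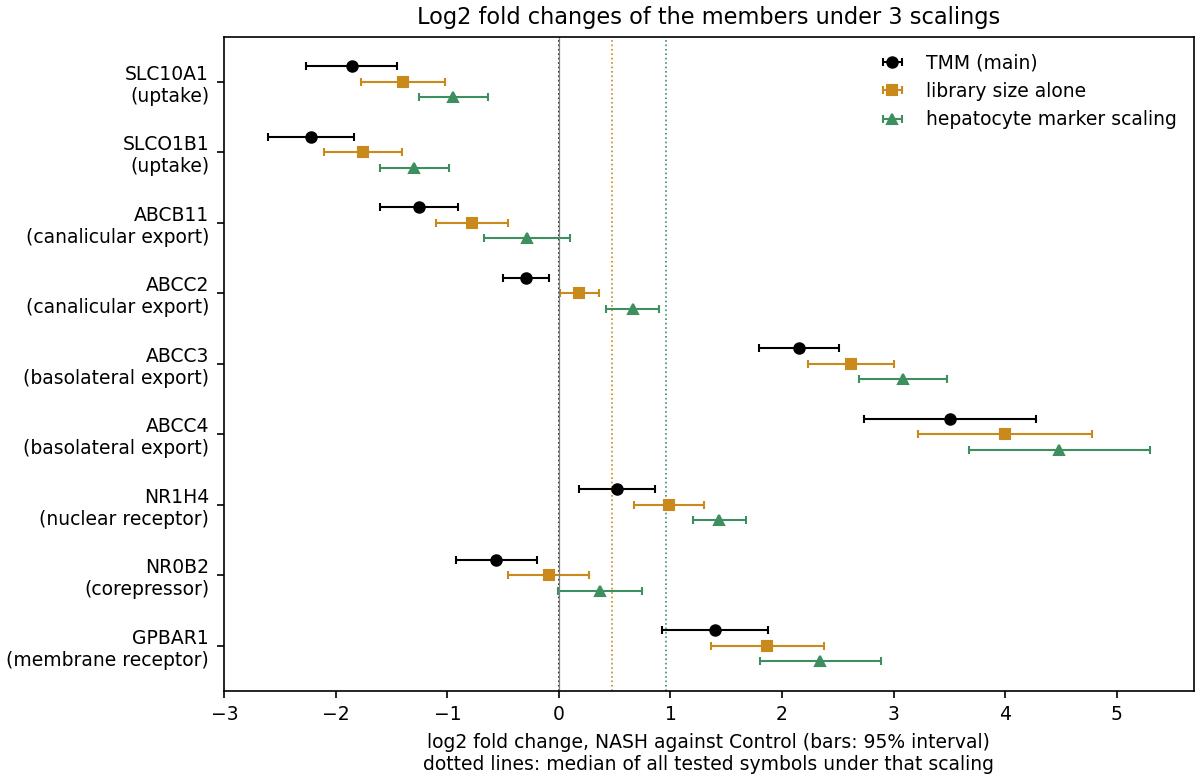
Log2 fold change of NASH against Control (horizontal axis) for each member under 3 scalings of the libraries, with 95% intervals as bars and the median of all symbols under each scaling as a dotted line (0.00, 0.48 and 0.96). *ABCC2* and *NR0B2* change sign between the scalings, *ABCB11* reaches 0 with its interval relative to hepatocyte markers, and the other 6 members keep their side.

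The levels of 2 members can also be set against each other within the same library, where no scaling enters. These ratios are of counts that are not divided by length, so only their change between groups carries meaning. The ratio of *ABCC3* to *ABCB11* counts, basolateral against canalicular export, was 0.00848 to 0.0240 in controls against 0.103 to 0.250 in NASH, 11.2-fold higher by the means of its logarithm. For *ABCC4* to *ABCB11* the ranges were 0.000826 to 0.00439 and 0.0290 to 0.146, which is 30.4-fold higher. Both ratios separated the groups fully.

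Set against the other canalicular pump, *ABCC3* to *ABCC2* rose from between 0.0308 and 0.0833 in controls to between 0.261 and 0.349 in NASH, 5.59-fold. The ratio of *ABCC3* to *SLC10A1*, basolateral export against uptake, was 0.0112 to 0.0239 in controls against 0.212 to 0.375 in NASH, 17.2-fold higher. These ratios did not overlap between the groups either, and the log2 difference of *ABCC3* to *ABCC2*, 2.48, stands against SDs of 0.54 in controls and 0.20 in NASH (n = 6 each).

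The remaining ratios overlapped between the groups. *SLC10A1* to *ABCB11* was 0.730 to 1.14 in controls against 0.379 to 0.961 in NASH, with animal 65 inside the range of the controls. *SLCO1B1* to *SLC10A1* was 0.635 to 1.43 in controls against 0.659 to 0.904 in NASH, so that the range of the animals with NASH lay wholly within that of the controls. *NR0B2* to *NR1H4*, corepressor against receptor, was 0.123 to 0.323 in controls against 0.0719 to 0.148 in NASH, 2.04-fold lower, and the groups overlapped through animal 10 among controls and animal 2 in NASH. Being chosen with earlier results of these animals known, the ratios are given as a description without a test. The ratio of *ABCB4* to *ABCB11* was planned and could not be formed.

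**Figure D3:**
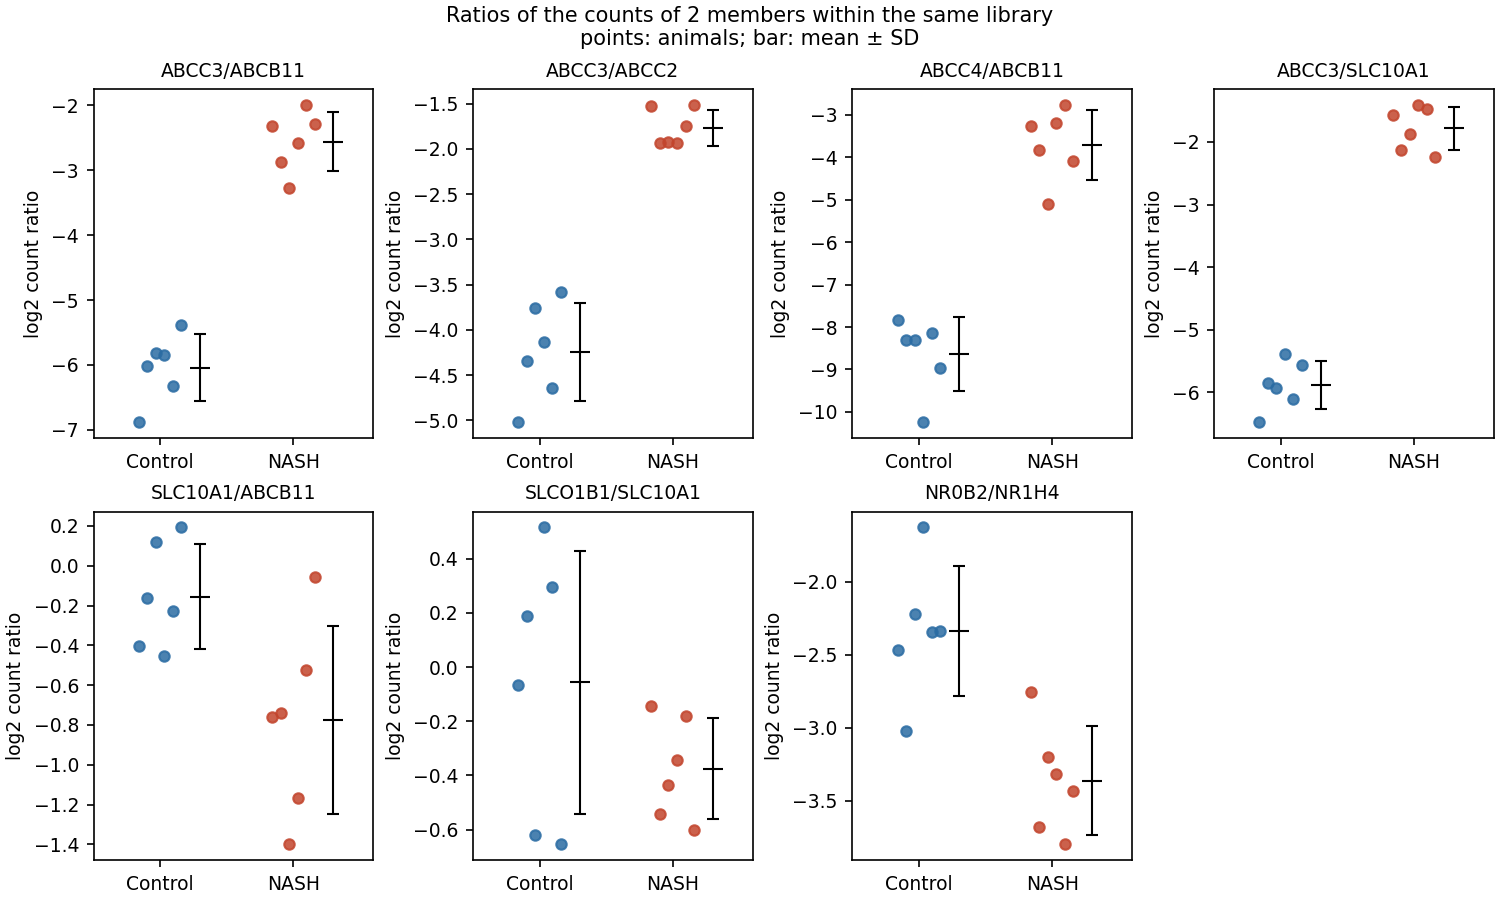
Log2 ratio of the counts of 2 members in the same library (vertical axis) for 7 pairs. Points are the 6 animals of a group and the bar is mean ± SD. The 4 ratios with a basolateral exporter on top separate the groups, and the other 3 overlap.

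Within a group, the members did not single out the same animal throughout. Among animals with NASH, animal 65 had the highest level of 5 of the 9 members (*SLC10A1*, *SLCO1B1*, *ABCC3*, *NR1H4* and *NR0B2*) and animal 20 the lowest of 4 (*SLC10A1*, *SLCO1B1*, *ABCC3* and *NR0B2*). Among controls, animal 5 was highest in 4 and lowest in 2. The coefficient of variation in controls ran from 9.51% for *NR1H4* to 51.5% for *ABCC4*, and in NASH from 8.07% for *ABCC2* to 32.8% for *SLC10A1*.

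The remaining genes of the bile acid system were taken from lists by function, in which each count is over the genes measured. Of 8 other bile salt and anion carriers, 3 were lower and 2 higher in NASH, and the list's median was −0.30 on the log2 scale. By library size alone 3 were lower and 3 higher with a median of 0.17, and relative to hepatocyte markers 3 and 5 with a median of 0.66, each time 0.30 below the median of all symbols. The lowest was *SLCO1B3*, which shares its count row with *SLCO1B1* and repeats that value, followed by *SLC22A7* (the organic anion carrier OAT2) with −1.64 (SE 0.21) and *ABCC6*, which fell from 194 ± 20.2 to 80.9 ± 14.4 CPM (SD, n = 6 each). The highest was *ABCB1*, a multidrug pump, with 1.36 (SE 0.40) from 1.37 ± 1.096 to 3.57 ± 0.961 CPM (SD, n = 6 each). With 166 counts over the 6 controls, *ABCB1* too was in the table only through NASH. *ABCC1*, a relative of *ABCC3* and *ABCC4*, had 0.87 (SE 0.18). The subunits of the basolateral transporter OST did not pass the threshold. *SLC51A* was at 20.8 ± 3.63 CPM in controls and 17.1 ± 2.36 CPM in NASH, and *SLC51B* at 16.5 ± 1.255 and 16.9 ± 2.001 CPM (SD, n = 6 each). Their log2 fold changes were −0.28 (SE 0.13) and 0.04 (SE 0.09). Relative to hepatocyte markers both passed as higher, at log2 values of 0.67 and about 1, where the median of all symbols was 0.96. *SLC51B* also passed by library size alone, at 0.51, where that median was 0.48.

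Among the 4 canalicular carriers of lipids and sterols, *ABCG5* and *ABCG8*, the subunits of the sterol pump, were lower with −0.81 (SE 0.18) and −0.70 (SE 0.13). By library size alone their values of −0.34 and −0.24 did not pass the threshold (edgeR adjusted p = 0.103 and 0.0991), and relative to hepatocyte markers those of 0.16 and 0.24 did not pass either and lay below the median of all symbols, 0.96. *ATP8B1*, a phospholipid flippase that protects the canalicular membrane, was at 52.9 ± 17.0 and 64.4 ± 19.9 CPM (SD, n = 6 each) and did not pass the threshold (edgeR adjusted p = 0.345), though it passed as higher by library size alone (0.74) and relative to hepatocyte markers (1.20). The median of all symbols was 0.48 and 0.96 under these scalings. Of 10 genes for trafficking and anchoring of canalicular transporters, 6 were higher and 1 lower, against 8 and 0 by library size alone and 9 and 0 relative to hepatocyte markers. Of all 11896 symbols, 7603 were higher by library size alone and 10182 relative to hepatocyte markers. The list's median lay 0.25 above that of all symbols with TMM and under both of these scalings. *ANO6*, a phospholipid scramblase, had the highest log2 fold change, 1.52 (SE 0.18), and *PDZK1*, a scaffold of apical transporters, the lowest, −0.70 (SE 0.10), which was −0.22 by library size alone and 0.26 relative to hepatocyte markers and passed under neither.

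Of 12 receptor partners and regulators, 6 were lower and none higher, with a median of −0.59. *RXRA*, with which NR1H4 pairs on DNA, fell from 302 ± 76.3 to 148 ± 25.8 CPM (SD, n = 6 each), or −1.03 on the log2 scale (SE 0.19, edgeR adjusted p = 0.000465), and relative to hepatocyte markers it was −0.07 and did not pass. The lowest value was that of *NR1I3* (the xenobiotic receptor CAR), −2.11 (SE 0.17), and the highest that of *PPARA*, 0.16 (SE 0.30), which did not pass the threshold. *FGFR4* and *KLB*, which form the hepatocyte receptor for the intestinal hormone FGF19, had −0.31 (SE 0.14) and −0.64 (SE 0.32) and did not pass either. Relative to hepatocyte markers *FGFR4* passed as higher, at 0.63 (edgeR adjusted p = 0.000606), and *KLB* did not pass, at 0.27 (edgeR adjusted p = 0.4005). Both lay below the median of all symbols under that scaling, 0.96. By library size alone 5 of the 12 were lower and 1 higher, and relative to hepatocyte markers 2 were lower and 6 higher, while the list's median lay 0.59 and 0.60 below that of all symbols under these scalings.

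Of 12 genes of bile acid synthesis and conjugation, 10 were lower and 1 higher, with a median of −1.34. *CYP7A1*, the rate-limiting enzyme of the classic pathway, was at 44.9 ± 20.8 CPM in controls and 45.2 ± 9.51 CPM in NASH (SD, n = 6 each), and its log2 fold change of 0.01 (SE 0.32) did not pass the threshold. Relative to hepatocyte markers it was 0.99 (edgeR adjusted p = 0.019), near the median of all symbols under that scaling, 0.96. *CYP8B1*, which directs synthesis to cholic acid, fell by 1.67 on the log2 scale (SE 0.17), and *AKR1D1*, a steroid reductase of the pathway, was lowest with −2.42. *CYP7B1*, the oxysterol hydroxylase of the alternative pathway, rose by 0.79 (SE 0.09). Relative to hepatocyte markers, 7 of the 12 passed the threshold as lower and 3 as higher. Of the 2 measured genes for detoxification of bile acids, *SULT2A1*, a sulfotransferase, fell by 0.86 (SE 0.21), and *CYP3A4*, whose row carries 5 symbols, had −0.26 (SE 0.12) and missed the threshold. By library size alone *SULT2A1* had −0.39 and did not pass. Relative to hepatocyte markers *SULT2A1* had 0.09 (edgeR adjusted p = 0.666) and *CYP3A4* passed as higher with 0.69 (edgeR adjusted p = 0.000113). Both values lay below the median of all symbols, 0.96.

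**Figure D4:**
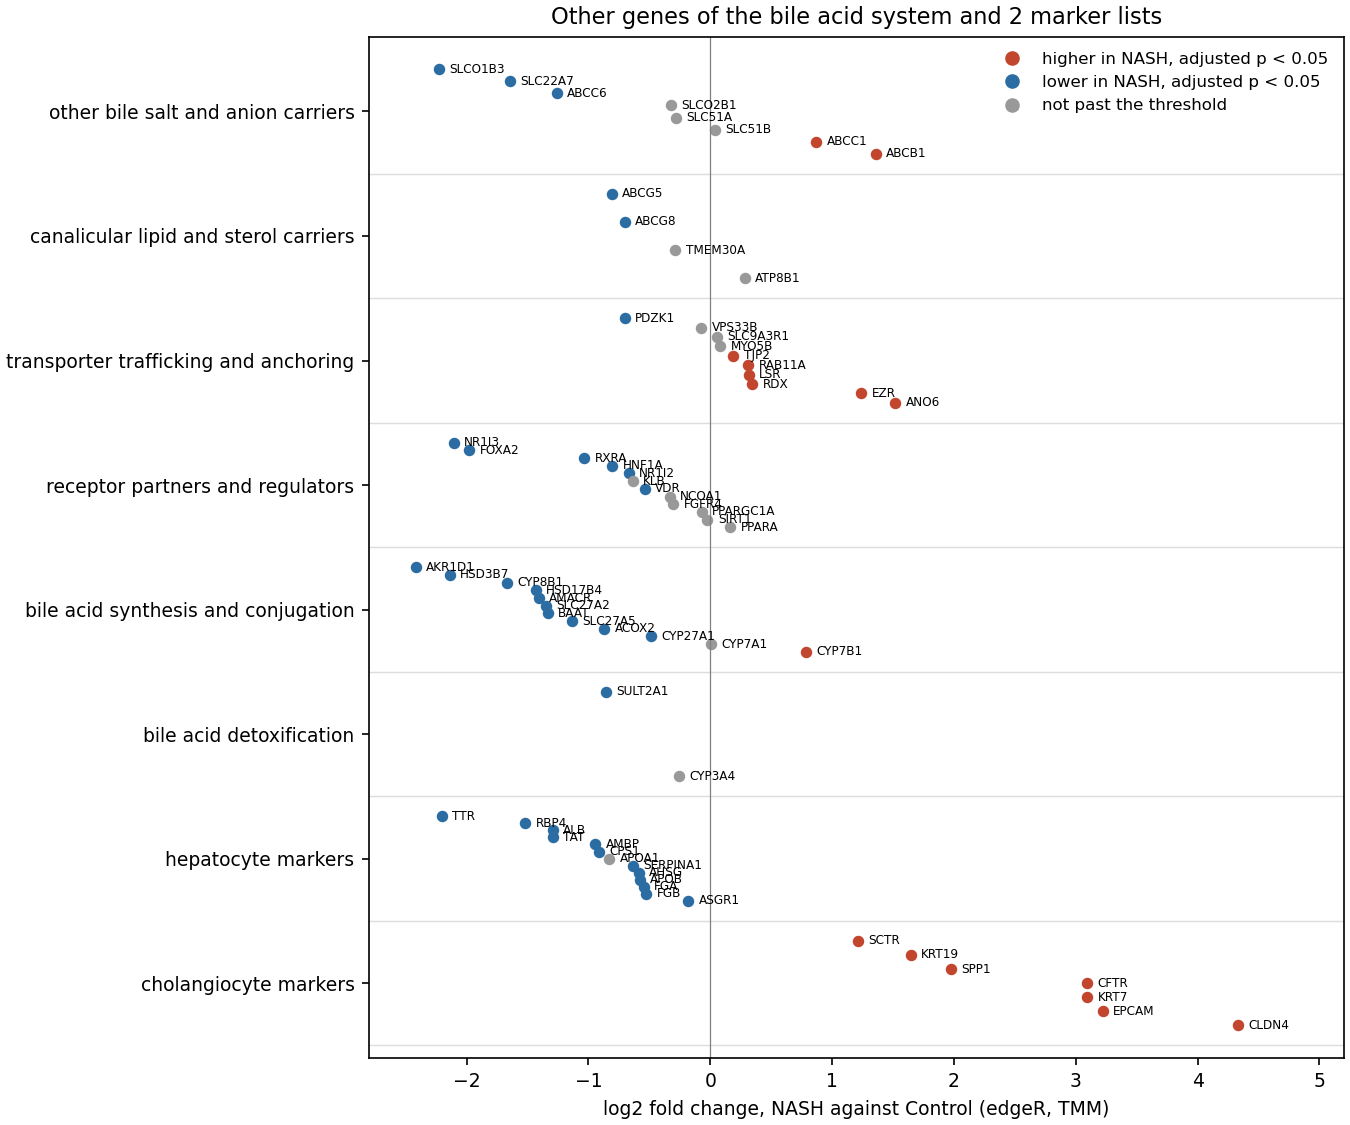
Log2 fold change of NASH against Control (horizontal axis, edgeR with TMM) of the measured genes of 6 functional lists around the members and of 2 marker lists. Red and blue points passed the threshold of 0.05 as higher or lower and grey points did not. In the synthesis list 10 of 12 genes are blue, and the 7 cholangiocyte markers drawn, of 8 measured, are red.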

How the data were processed

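The authors trimmed reads with Trimmomatic 0.38.0, mapped them with HISAT2 2.1.0 to Cavpor3.0, ignored multimapped reads and quantified loci with StringTie 1.3.6. The authors deposited raw counts for 39061 loci without symbols or coordinates. They also deposited log2 values (rlog of DESeq2) for 11896 human orthologue symbols with at least 200 counts in total. Repeating the rlog transformation on the deposited counts found the count row of each symbol, with a largest difference of 8.35e-07 on the log2 scale.

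Counts were analysed with edgeR 4.0.16 in R 4.3.3 (TMM factors, total of all loci as library size, robust glmQLFit, glmQLFTest, Benjamini-Hochberg over 11896 symbols). SEs were obtained by dividing the size of the log2 change by the root of its F statistic. Replicate libraries differed by at least 44.6 times the counting variance per row. On simulated counts of 11031 rows with 200 changed 4-fold, edgeR recovered 100% and 6.1% of its calls were false. The simulated rows shared a single dispersion and the others were unchanged, whereas 53.9% of symbols passed in the data. The simulation therefore does not bear on the choice of scaling. Relative to hepatocyte markers means scaling by the geometric mean of the 13 measured markers. Alternatives were RLE and upper-quartile factors, library size alone, DESeq2 1.42.0, voom of limma 3.58.1, 3 other choices of rows, other thresholds and each animal left out. The members and lists were chosen with earlier results of these data known. Named beside the members were the highest and the lowest gene of each list and *SLC51A*, *SLC51B*, *CYP7A1*, *CYP8B1*, *FGFR4*, *KLB*, *RXRA* and *ATP8B1*. *SLCO1B1.1*, *SLC22A7*, *ABCC6*, *ABCC1* and *ABCG8* fall outside that rule and were chosen after their values were seen. The stellate and erythroid marker lists had 5 of 8 genes higher with 1 lower (*COL1A1* 4.21 to *LRAT* −0.57 on the log2 scale), and 4 of 4 higher (*SLC4A1* 6.38 to *KLF1* 2.33), of which 3 reached 200 counts only through NASH. The value of 1 cholangiocyte marker is not reported here. Figures were drawn with matplotlib 3.10.9.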

Additional observations from a re-analysis of the deposited data

How the results depend on the processing

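*SLC10A1*, *SLCO1B1*, *ABCC3*, *ABCC4*, *NR1H4* and *GPBAR1* kept their direction and stayed past the threshold of 0.05 under each other scaling, tool, choice of rows and set of animals. With each animal left out in turn, so did all 9 members. *ABCC2* had −0.22 with upper-quartile factors and −0.21 with every row of at least 1 count, both short of the threshold. By library size alone *ABCC2* was 0.18 and *NR0B2* −0.0913, and relative to hepatocyte markers *ABCC2* was 0.66, *NR0B2* 0.37 and *ABCB11* −0.29. Members lower in NASH then numbered 3 and 2, against 5. Members higher numbered 5 relative to hepatocyte markers, where *ABCC2* passed, against 4. At a threshold of 0.01 there were 3 lower and 3 higher, without *NR1H4*, and 2 lower and 2 higher where the change had to exceed 1 on the log2 scale, without *NR1H4* and *GPBAR1* (edgeR adjusted p = 1 and 0.115). From rlog values, which are shrunken, the log2 differences of the ratios were 2.18 (*ABCC3* to *ABCB11*), 1.53 (*ABCC3* to *ABCC2*), 2.76 (*ABCC4* to *ABCB11*) and 2.57 (*ABCC3* to *SLC10A1*), against 3.48, 2.48, 4.92 and 4.10 from counts. Over all symbols 3318 were higher and 3093 lower, against 7603 and 911 by library size alone and 10182 and 296 relative to hepatocyte markers. No paired analysis was possible because the animal numbers of the groups are all different. Depth limits *GPBAR1* most, where 1 count is between 0.0412 and 0.0715 CPM in a control.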
